A study of Danio rerio with 63 samples.

Results

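Neuropilins and class 3 semaphorins, the receptors and secreted ligands of a guidance system for axons, crest cells and vessels, were followed through early zebrafish development in blastoderm explants. The set was 10 genes, found by symbol among the 32057 genes of the count table. It held the 4 neuropilin genes nrp1a, nrp1b, nrp2a and nrp2b and the 6 ligand genes sema3aa, sema3ab, sema3d, sema3e, sema3fa and sema3fb. All 10 had 1 row each, and all 10 passed the filter on low counts that left 19069 genes for testing. The set was chosen by measured values: nrp1a and sema3d were among the largest falls under CA-acvr1b*. Differences between conditions for those 2 genes are therefore given as descriptions with no test. Their changes between stages within a condition were tested on libraries that also served the choice, so those p-values are not independent of it. The 8 other members were tested throughout.

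Neuropilins are transmembrane proteins with short cytoplasmic tails. They bind class 3 semaphorins outside the cell and pass the signal on through plexins, which act on small GTPases and the cytoskeleton, and Neuropilin 1 and Neuropilin 2 also bind VEGF family ligands. In vertebrate embryos the system is best known for repelling growing axons, steering neural crest streams and shaping vessels.

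Explants were cut from embryos at about 3 hours after fertilization and cultured in explant medium. Uninjected explants were compared with explants from embryos that had received, at the 1-cell stage, 10 pg of mRNA for the Nodal ligand ndr2 or 0.5 pg of CA-acvr1b* mRNA. CA-acvr1b* is known in this field as a constitutively active form of the Nodal type I receptor Acvr1b. Polyadenylated RNA was sequenced at 7 stages, which were sphere at 4 hours after fertilization, 30% epiboly at 4.7, 50% epiboly at 5.3, shield at 6, 75% epiboly at 8, 90% epiboly at 9 and 2-somite at 11. Each of the 21 groups of condition and stage had 3 libraries, lettered A to C, 63 in all. The series calls the letters biological replicates and does not say whether they came from separate clutches, so p-values measure the spread between these libraries.

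Library totals ran from 11756626 to 19650245 counts with a median of 15620678, so 1 count was worth 0.0509 to 0.0851 CPM, the usual unit that scales counts to the library total. Levels below are CPM of the library total, in the order of replicates A, B and C. The injected ligand checked the labels: ndr2 stood at 7.30 to 72.3 CPM in the 21 ndr2 libraries and at 0 to 1.76 CPM in the 21 uninjected ones. In the CA-acvr1b* libraries ndr2 ran from 1.08 to 57.6 CPM. At sphere, acvr1ba gave 403, 357 and 329 CPM under CA-acvr1b* and 339, 345 and 336 CPM in uninjected explants, and acvr1bb gave 192, 200.4 and 188 CPM and 211, 138 and 204 CPM. The labels do not say from which gene the CA-acvr1b* mRNA was made, so neither row need show the injection. Over all stages the median of acvr1ba was 375 CPM under CA-acvr1b*, 358 CPM under ndr2 and 193 CPM in uninjected explants. Of the 11 tested genes of a Nodal response list, 11 were higher on average under each injection than in uninjected explants (edgeR, adjusted p under 0.05). The list includes ndr2, which was itself the injected mRNA in 1 of the conditions. Of all tested genes 6.81% passed the same test, in either direction, under CA-acvr1b* and 17.9% under ndr2. A listed 0 in this table need not mean absence: the Nodal response genes gsc, ndr1 and dkk1b were listed at 0 in all 63 libraries.

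Some libraries stood apart from others of their group. In uninjected replicate A the summed level of 8 enveloping layer markers was 14983 CPM at 75% epiboly, 16916 CPM at 90% epiboly and 29529 CPM at 2-somite, against 10489 to 11221, 12553 to 13113 and 19705 to 19799 CPM in replicates B and C. The 5 pluripotency genes of the early blastoderm summed to 2170.4, 1312 and 350.1 CPM in those replicate A libraries and to 3799.6 to 4128, 3132 to 3295 and 895 to 912 CPM in replicates B and C. At 2-somite, CA-acvr1b* replicate A had 1483 CPM of 12 non-neural ectoderm and epidermis genes, against 5481 and 4794 CPM in replicates B and C. Several results for members are given with and without these libraries, whereas the 2-somite calls of other pathway genes are given only with them. In these bulk samples, fewer cells of a type and less RNA per cell cannot be told apart.

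In uninjected explants nrp1a was present at sphere, lowest at 50% epiboly and shield, and highest at 2-somite. nrp2a, nrp2b and sema3fa were below 2 CPM at sphere and higher at 2-somite, whereas sema3d was highest at 75% and 90% epiboly. sema3aa and sema3e were highest at sphere and close to 0 at 2-somite, sema3ab was highest at sphere and low afterwards, and nrp1b and sema3fb stayed at or near 0 throughout. Between sphere and 2-somite 7 of the 10 genes passed the edgeR quasi-likelihood test with Benjamini-Hochberg adjustment in uninjected explants. Of all tested genes 66.3% did, so that share is near the background. The 5 that rose were nrp1a, nrp2a, nrp2b, sema3d and sema3fa, and the 2 that fell were sema3aa and sema3e. Under ndr2 6 of the 10 passed, against 67.9% of all genes, and under CA-acvr1b* 7 passed, against 67.8%. Between 30% and 50% epiboly 3, 1 and 2 of the 10 passed in uninjected, ndr2 and CA-acvr1b* explants, against 24.9%, 21.9% and 31.8% of all genes. Between 50% epiboly and shield 1, 1 and 3 of the 10 passed in uninjected, ndr2 and CA-acvr1b* explants, against 17.6%, 12% and 7.02% of all genes. Between shield and 75% epiboly 4, 4 and 5 passed, against 15.8%, 25.9% and 22.2%. Between 90% epiboly and 2-somite 2 passed in each condition, against 10.1%, 8.82% and 5.36%. These counts include nrp1a and sema3d. Of the 8 other members 5 passed between sphere and 2-somite in each condition. For the shorter steps above, in the same order, 2, 1 and 1 passed, then 0, 0 and 1, then 2, 3 and 3, then 1 in each condition. Between sphere and 30% epiboly 0, 2 and 1 of the 10 passed in uninjected, ndr2 and CA-acvr1b* explants, and 0, 1 and 0 of the 8. Of all 19069 tested genes 5215, 5892 and 5428 passed at that step. Between 75% and 90% epiboly 0 members passed in each condition, against 0, 13 and 25 of all genes.

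nrp1a, which encodes a neuropilin 1 receptor, overlapped between conditions at first and was higher in uninjected explants from 75% epiboly on. At sphere it gave 4.72, 4.84 and 11.2 CPM in uninjected, 5.52, 11.9 and 10.7 CPM in ndr2 and 7.69, 7.25 and 7.38 CPM in CA-acvr1b* explants. At 50% epiboly all 9 libraries lay in the range of 0.305 to 1.15 CPM. The groups overlapped at sphere, 30% epiboly and 50% epiboly.

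At shield nrp1a had 2.29, 1.06 and 0.211 CPM in uninjected explants, 55 counts in all. It had 0.467, 0.923 and 0.153 CPM, 27 counts, under ndr2. Under CA-acvr1b* all 3 libraries were at 0. Against a floor of 3 counts over the group, the uninjected level at shield was at least 18.1-fold higher than the CA-acvr1b* level, though the lowest uninjected library held only 3 counts. Without uninjected replicate A the bound was at least 9.30-fold.

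From 75% epiboly the uninjected libraries stood above all injected ones. Uninjected nrp1a was 11.8, 5.35 and 4.52 CPM at 75% epiboly, 18.8, 9.64 and 11.2 CPM at 90% epiboly and 87.1, 24.1 and 24.8 CPM at 2-somite. Under ndr2 the values were 1.28, 1.62 and 0.429, then 2.30, 0.987 and 1.56, then 4.36, 3.64 and 6.08 CPM. Under CA-acvr1b* they were 0.670, 1.59 and 1.23, then 2.96, 3.23 and 2.52, then 18.4, 14.7 and 9.18 CPM. At each of the 3 stages no injected library reached the lowest uninjected one, and replicate A was the highest of the uninjected libraries.

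On the log2 scale of the fit, the difference in nrp1a between CA-acvr1b* and uninjected was -2.63 ± 0.57 (SE) at 75% epiboly, -2.16 ± 0.54 at 90% epiboly and -1.66 ± 0.51 at 2-somite. The difference between ndr2 and uninjected was -2.65 ± 0.58, -3.00 ± 0.57 and -3.25 ± 0.55 at the same stages. Without uninjected replicate A at 2-somite, the 2-somite differences shrank to -0.77 and -2.36. The CA-acvr1b* differences served to choose the gene, and the ndr2 differences share their uninjected libraries, so both are given without a test. Without uninjected replicate A of their own stage the differences were -2.09 and -2.11 at 75% epiboly and -1.83 and -2.67 at 90% epiboly, for CA-acvr1b* and ndr2 in turn.

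The stage changes of nrp1a were tested on libraries that also served its choice, so their p-values are not independent of it. Within conditions, nrp1a rose between shield and 75% epiboly in uninjected explants by 2.53 ± 0.57 on the log2 scale (edgeR, adjusted p = 0.00112). It also rose under CA-acvr1b*, where shield held no count, by at least 16.6-fold (adjusted p = 5.47e-05). Under ndr2 that change was 1.12 ± 0.65 (adjusted p = 0.211). Between 50% epiboly and shield nrp1a fell at least 10.7-fold under CA-acvr1b* (adjusted p = 0.00472), a call lost without letter B (0.0786) or C (0.219). From sphere to 2-somite nrp1a rose by 3.05 ± 0.54 in uninjected explants (adjusted p = 2.51e-06) and by 1.26 ± 0.51 under CA-acvr1b* (adjusted p = 0.0271). Under ndr2 the change was -0.63 ± 0.51 (adjusted p = 0.279). No test is given of whether the stage changes of nrp1a differed between conditions. Between 90% epiboly and 2-somite the rise was 1.71 ± 0.51 in uninjected explants (adjusted p = 0.0226) and 2.20 ± 0.54 under CA-acvr1b* (adjusted p = 0.00777). Neither of these late rises was called without replicate A of its 2-somite group, at 0.81 (adjusted p = 0.509) and 1.94 (adjusted p = 0.0505). The uninjected one was also lost without any 1 letter (adjusted p = 0.0667 to 0.207) and the CA-acvr1b* one without letter B (0.123) or C (0.0649). The CA-acvr1b* call from sphere to 2-somite was lost without CA-acvr1b* replicate A at 2-somite (adjusted p = 0.114), without letter A (0.119) or without letter B (0.133), whereas without uninjected replicate A the uninjected rise from sphere was 2.16 (adjusted p = 0.000395).

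**Figure D1:**
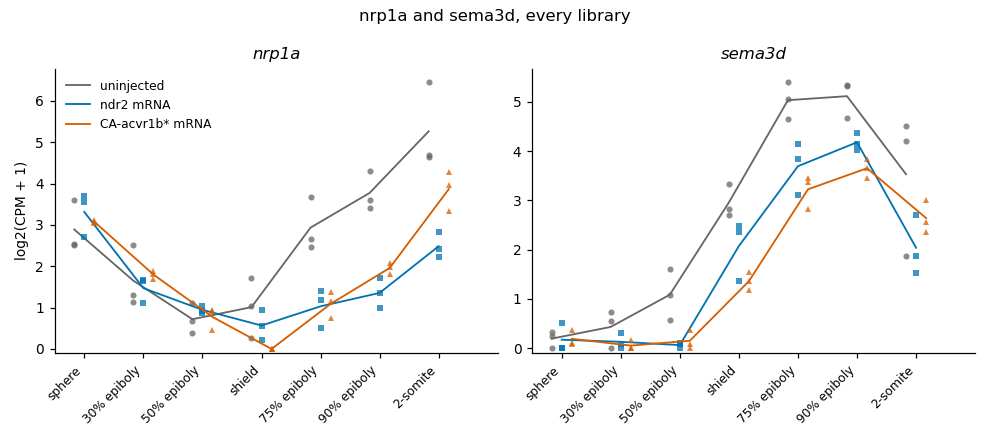
Level of nrp1a and of sema3d in each of the 63 libraries, as log2(CPM + 1), against stage. Points are libraries and lines join the means of 3 libraries per group; uninjected nrp1a climbs to 24.1 to 87.1 CPM at 2-somite while sema3d peaks at 75% and 90% epiboly.

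nrp2a, a neuropilin 2 receptor gene, was higher at 2-somite than at sphere in every condition. Its 2-somite level was lower under ndr2 than in uninjected explants. Under ndr2 nrp2a first fell between sphere and 30% epiboly, an edgeR call lost without any 1 letter (adjusted p = 0.0699 to 0.148). At 2-somite it gave 38.8, 13.6 and 15.2 CPM in uninjected, 2.40, 5.31 and 5.56 CPM in ndr2 and 8.57, 13.2 and 7.32 CPM in CA-acvr1b* explants. Every uninjected library lay above every injected one. ndr2 against uninjected was -2.32 ± 0.67 on the log2 scale (edgeR, adjusted p = 0.0137), and CA-acvr1b* against uninjected was -1.20 ± 0.64 (adjusted p = 0.303), which did not pass. The ndr2 call rested on replicate A libraries: without uninjected replicate A the difference was -1.68 (adjusted p = 0.149) and without ndr2 replicate A it was -2.00 (adjusted p = 0.0978). At 75% epiboly CA-acvr1b* explants had 8.10, 6.00 and 7.46 CPM, all above the 3.12 to 4.30 CPM of the uninjected group, but that difference did not pass either (adjusted p = 0.927).

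nrp2b, the other neuropilin 2 gene, was low until shield and higher at 2-somite than at sphere in all conditions. At 90% epiboly it was 47.3, 6.13 and 6.02 CPM in uninjected explants, 6.38, 3.55 and 3.18 CPM under ndr2 and 14.5, 27.0 and 7.99 CPM under CA-acvr1b*. Uninjected replicate A stood far above replicates B and C. At 2-somite the values were 130.4, 59.5 and 68.5 CPM in uninjected, 44.4, 33.2 and 64.4 CPM in ndr2 and 115, 63.8 and 65.3 CPM in CA-acvr1b* explants, and all 3 groups overlapped.

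No single stage of nrp2b passed the test in any pair of conditions. Averaged over the 7 stages, nrp2b was lower under ndr2 than in uninjected explants (-1.61 ± 0.36 on the log2 scale, edgeR, adjusted p = 0.00104) and lower than under CA-acvr1b* (-1.37 ± 0.37, adjusted p = 0.0123). CA-acvr1b* against uninjected averaged -0.24 ± 0.32 (adjusted p = 0.811). The fall against uninjected was not called without letter A (-1.03, adjusted p = 0.0817), without letter B (-1.36, adjusted p = 0.0727) or with counts summed over stages (-1.02, adjusted p = 0.243), a sum in which the 2-somite counts weigh most. The fall against CA-acvr1b* was not called without letter B (-1.33, adjusted p = 0.111), without letter C (-0.71, adjusted p = 0.999912) or with summed counts (-0.84, adjusted p = 0.472). In the CA-acvr1b* group 2 libraries held no nrp2b count, and whether this drove the value without letter C was not tested.

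nrp1b, the second neuropilin 1 gene, was at 0 to 12 counts in every library, with a range of 0 to 0.800 CPM in uninjected explants. It was at 0 in 8 of 21 uninjected, 16 of 21 ndr2 and 10 of 21 CA-acvr1b* libraries. Its average under ndr2 against uninjected, with 2 groups that held no count, had an adjusted p of 0.0578 by edgeR, and no difference in nrp1b was detectable at this depth.

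**Figure D2:**
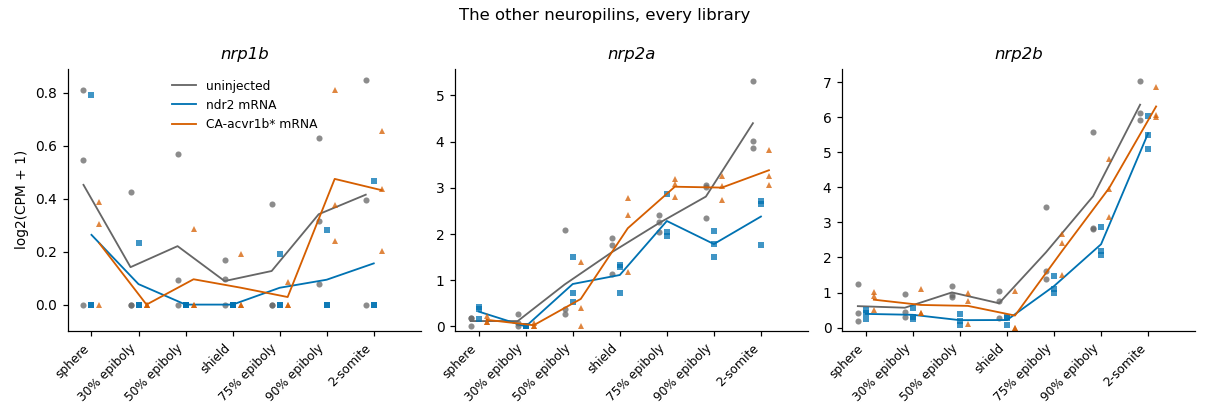
Level of nrp1b, nrp2a and nrp2b in every library as log2(CPM + 1) against stage, with lines joining the group means of 3 libraries. nrp2a separates at 2-somite, where uninjected libraries hold 13.6 CPM or more and injected libraries 13.2 CPM or less, while the nrp2b groups overlap there.

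sema3d, a class 3 semaphorin gene studied in zebrafish for its part in axon guidance and heart and crest development, was highest in late gastrulation, where it stood higher in uninjected than in injected explants. At 75% epiboly it was 41.5, 24.1 and 32.2 CPM in uninjected explants, 7.62, 16.7 and 13.3 CPM under ndr2 and 6.14, 10.0 and 9.41 CPM under CA-acvr1b*. At 90% epiboly it was 24.5, 39.8 and 39.2 CPM in uninjected explants, 15.3, 19.6 and 16.8 CPM under ndr2 and 9.96, 11.6 and 13.4 CPM under CA-acvr1b*. At both stages every uninjected library exceeded every injected one. The separation was already present at 50% epiboly, where uninjected explants had 2.04, 1.12 and 0.484 CPM and injected explants 0 to 0.293 CPM, and at shield, with 9.04, 6.13 and 5.55 CPM against 1.58 to 4.61 CPM under ndr2 and 1.26 to 1.92 CPM under CA-acvr1b*.

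At 2-somite sema3d stood at 2.67, 21.9 and 17.4 CPM in uninjected explants. It was 2.67, 5.54 and 1.89 CPM under ndr2 and 4.11, 7.03 and 4.93 CPM under CA-acvr1b*. Uninjected replicate A lay among the injected libraries while replicates B and C lay above all of them, so the groups overlapped. That library was also the one with the highest nrp1a, nrp2a and nrp2b.

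The log2 difference in sema3d between CA-acvr1b* and uninjected was -2.13 ± 0.62 at shield, -1.93 ± 0.57 at 75% epiboly, -1.55 ± 0.56 at 90% epiboly and -1.38 ± 0.57 at 2-somite. For ndr2 against uninjected it was -1.001 ± 0.579, -1.33 ± 0.56, -0.96 ± 0.55 and -2.04 ± 0.59. With any 1 library of the pair left out, the 2-somite difference under CA-acvr1b* ran from -1.85, when uninjected A was dropped, to -0.91, when uninjected B was dropped. It lay between -2.63 and -1.56 under ndr2.

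Within conditions, sema3d rose between 50% epiboly and shield by 2.56 ± 0.63 in uninjected explants (adjusted p = 0.0029), by 3.90 ± 0.93 under CA-acvr1b* (adjusted p = 0.00745) and, under ndr2, from 2 to 182 counts over the group (adjusted p = 9.16e-05). It rose again between shield and 75% epiboly in all 3 conditions. As for nrp1a, the p-values of these stage changes come from libraries that also served the choice and are not independent of it. Without letter B or C the adjusted p of the 2 uninjected rises lay between 0.0607 and 0.0971. The first rise under CA-acvr1b* was lost without letter C (0.281) and the second without letter B (0.113), and the second rise under ndr2 was lost without letter B (0.143) or C (0.189). From 90% epiboly to 2-somite sema3d fell under ndr2 (-2.45 ± 0.60, adjusted p = 0.00459, and 0.159 without letter C). The change was -1.37 ± 0.56 in uninjected explants (adjusted p = 0.114) and -1.20 ± 0.57 under CA-acvr1b* (adjusted p = 0.267), and whether these changes differed between conditions was not tested.

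sema3aa encodes a ligand of the semaphorin 3A type, known as a repellent for axons that carry Neuropilin 1. Its level at sphere was 4.45, 2.95 and 5.74 CPM in uninjected, 2.83, 4.78 and 7.22 CPM in ndr2 and 6.57, 5.63 and 5.21 CPM in CA-acvr1b* explants. At 2-somite it was 0, 0.0612 and 0 CPM in uninjected, 3.00, 1.82 and 3.38 CPM in ndr2 and 8.71, 4.26 and 2.99 CPM in CA-acvr1b* explants. At 2-somite the uninjected libraries were at or next to 0, and every injected library lay above them.

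At 2-somite the 3 uninjected libraries held 1 sema3aa count together, against 137 under ndr2 and 237 under CA-acvr1b*. The ratio to uninjected was 249 for CA-acvr1b*, with an exact binomial 95% counting interval of 44.3 to 9883, and 133 for ndr2, with an interval of 23.6 to 5310.3. Both differences passed the edgeR test (adjusted p = 1.27e-06 and 1.79e-05), and both calls held without any single library of the pair. Whether a condition's effect changed with stage was tested for the 8 members, and of these sema3aa passed under CA-acvr1b* (adjusted p = 0.00122, against 3.43% of all genes) and ndr2 (adjusted p = 0.00929, against 5.32%). With the 2-somite stage left out neither passed (adjusted p = 0.992 and 1). The ndr2 call was also lost without uninjected replicate A at 2-somite (adjusted p = 0.0734) or without any 1 letter (0.0833 to 0.399), and the CA-acvr1b* call without letter A (0.160) or C (0.244).

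sema3fa, a semaphorin 3F type gene whose product is known to act mainly through Neuropilin 2, was higher in injected than in uninjected explants at 2-somite. At 75% epiboly it was 2.76, 2.27 and 1.51 CPM in uninjected, 7.96, 7.13 and 5.29 CPM in ndr2 and 11.1, 11.3 and 5.58 CPM in CA-acvr1b* explants. At 2-somite it was 3.20, 4.10 and 7.77 CPM in uninjected, 42.7, 53.5 and 29.7 CPM in ndr2 and 25.4, 27.2 and 24.3 CPM in CA-acvr1b* explants. Before that, uninjected sema3fa went from 0.545, 0.607 and 0.284 CPM at 30% epiboly to 0, 0.0658 and 0 CPM at 50% epiboly, a fall that passed (adjusted p = 0.0483) and was lost without any 1 letter (0.0677 to 0.188). Injected and uninjected libraries did not overlap at 75% epiboly, 90% epiboly or 2-somite.

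At 2-somite sema3fa was higher by 3.09 ± 0.68 under ndr2 (edgeR, adjusted p = 0.00108) and by 2.36 ± 0.67 under CA-acvr1b* (adjusted p = 0.0153). The ndr2 call held without any single library of the pair. The CA-acvr1b* call was lost without uninjected replicate A (2.13, adjusted p = 0.111) or B (2.23, adjusted p = 0.0712). It was also lost without any 1 letter (0.0751 to 0.0935). Averaged over stages sema3fa was higher by 1.72 under CA-acvr1b* and by 1.39 under ndr2. The first of these calls was lost without letter A (1.84, adjusted p = 0.0599) or C (1.76, adjusted p = 0.0503), and the second without letter C (1.10, adjusted p = 0.260) or the 2-somite stage (1.13, adjusted p = 0.116).

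sema3fb, the other semaphorin 3F gene, was at 0 in 15 of 21 uninjected libraries. None of the uninjected libraries at shield, 75% epiboly or 90% epiboly held a count, and the 3 at 2-somite held 5 together. At 75% epiboly the values were 0.742, 0.282 and 0.0714 CPM under ndr2 and 3.04, 2.14 and 2.32 CPM under CA-acvr1b*. At 90% epiboly they were 0.680, 0.855 and 0.485 CPM and 1.09, 5.26 and 0.814 CPM, and at 2-somite 14.6, 4.83 and 5.62 CPM and 1.28, 1.38 and 6.50 CPM. All injected libraries exceeded all uninjected ones at these 3 stages, with 1 high library in the CA-acvr1b* group at 90% epiboly (B) and at 2-somite (C), and 1 in the ndr2 group at 2-somite (A).

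Against a floor of 3 counts over the uninjected group, sema3fb under CA-acvr1b* was at least 37.5-fold higher at 75% epiboly (edgeR, adjusted p = 0.0126) and at least 32.7-fold higher at 90% epiboly (adjusted p = 0.0111). Dropping the highest of the 3 CA-acvr1b* libraries, B, took the 90% epiboly bound to 13.8-fold. At 2-somite the ratio of summed counts was 27.1 for CA-acvr1b* (adjusted p = 0.0212) and 83.2 for ndr2 (adjusted p = 0.00219). The ndr2 call held without any single library of the pair. The 3 CA-acvr1b* calls each needed every uninjected library of their stage: without 1 of these the adjusted p ran from 0.0682 to 0.0852 at 75% epiboly, whereas at 90% epiboly it lay between 0.0557 and 0.0662 and at 2-somite between 0.0606 and 0.102. The high library mattered too, since the 90% epiboly call was lost without replicate B of the CA-acvr1b* group (0.0789) and the 2-somite call without its replicate C (0.151).

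sema3ab, the second semaphorin 3A gene, and sema3e, whose mouse product binds a plexin without a neuropilin, were highest at sphere. sema3ab at sphere was 1.70, 9.93 and 2.45 CPM in uninjected, 3.30, 6.74 and 2.37 CPM in ndr2 and 6.31, 1.39 and 2.05 CPM in CA-acvr1b* explants, with 1 library well above the other 2 in each group. sema3e at sphere was 2.62, 5.47 and 2.19 CPM in uninjected explants, and from 75% epiboly all 27 libraries were at 0 to 0.469 CPM. sema3e fell between sphere and 2-somite in each condition (edgeR, adjusted p = 0.000281 uninjected, 0.000333 ndr2, 0.00172 CA-acvr1b*). Neither gene differed between conditions beyond the test's threshold at any stage or on average, and at 2-somite sema3ab was 0.800, 2.69 and 2.21 CPM in uninjected against 0, 0.403 and 0.299 CPM in CA-acvr1b* explants (adjusted p = 0.126).

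**Figure D3:**
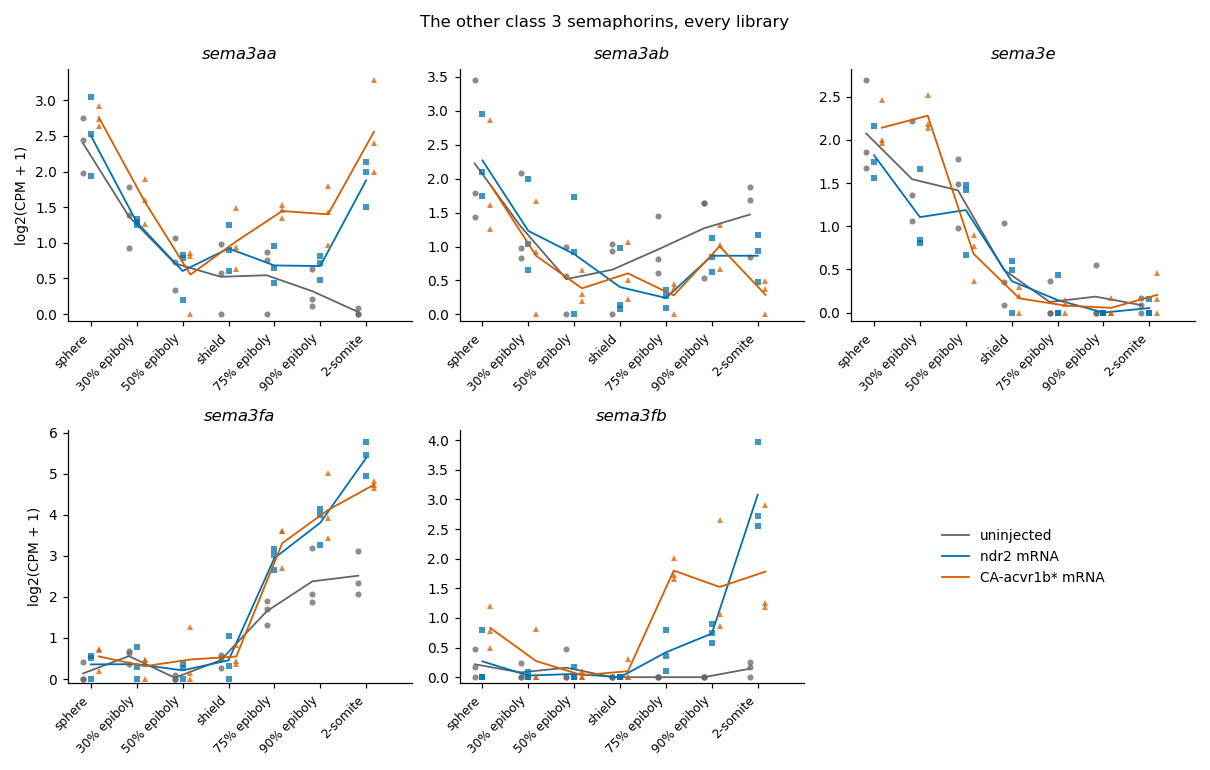
Level of the 5 other class 3 semaphorin genes in every library as log2(CPM + 1) against stage, with lines joining the group means of 3 libraries. At 2-somite sema3aa, sema3fa and sema3fb are higher in both injected groups than in the uninjected group, and sema3e is near 0 in all groups.

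Across the 8 members not used in the choice, CA-acvr1b* against uninjected called 3 on average over the 7 stages, all higher: sema3aa, sema3fa and sema3fb. Of all tested genes 6.81% were called in that comparison. The medians were -0.24 over the 8 members and -0.02 over all genes. At 2-somite the same 3 were called, where 9.15% of all genes were. At 75% and 90% epiboly edgeR called only sema3fb, against 1.62% and 2.49% of all genes. At an unadjusted p under 0.05 there were 3 at each of these stages. DESeq2 called 1 and 2, with sema3aa added at 90% epiboly (adjusted p = 0.0186), and gave no adjusted p for 1 of the 8 there. By edgeR sema3aa passed at 90% epiboly without uninjected replicate B of that stage (adjusted p = 0.04997). The average of sema3fb, 3.85 ± 0.98, spans 3 groups without a count. By edgeR it was 4.00 without letter B (adjusted p = 0.999971) and 2.37 without letter C (adjusted p = 0.999903). With groups that hold no count, these refits cannot decide whether the call depends on a letter.

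For ndr2 against uninjected, 3 of the 8 were called on average: sema3aa (1.21 ± 0.32) and sema3fa higher, and nrp2b lower. The sema3fb average of 2.30 spans 4 groups without a count and had an SE of 9946, so that test could not decide. DESeq2 called sema3fb (adjusted p = 0.0224), and so did edgeR with counts summed over stages (adjusted p = 0.00167). With the 2-somite stage left out the sema3aa average was 0.33 (adjusted p = 0.585) under ndr2 and 0.96 (adjusted p = 0.0946) under CA-acvr1b*. Without letter A the ndr2 average of sema3aa was 0.94 (adjusted p = 0.0874), and with counts summed over stages 0.55 (adjusted p = 0.288). Of all tested genes 17.9% were called. At 75% and 90% epiboly edgeR called 0 of the 8, where 1.81% and 2.61% of all genes were called. At an unadjusted p under 0.05 there were 3 and 4. DESeq2 called 0 and 1, and gave no adjusted p for 1 of the 8 at each stage. At 2-somite 4 of the 8 were called, sema3aa, sema3fa and sema3fb higher and nrp2a lower, against 12.2% of all genes. The medians at 2-somite were -0.70 over the 8 and 0 over all genes. Both injections were compared with the same uninjected libraries, so these counts are not independent of each other.

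At sphere, 30% epiboly, 50% epiboly and shield none of the 8 was called by edgeR in either comparison with uninjected. In stage order the shares of all genes called were 0.042%, 0.173%, 0.357% and 0.472% for CA-acvr1b* and 0.236%, 0.225%, 1.46% and 1.07% for ndr2. Of 32 values in each, 1 had an unadjusted p under 0.05, and DESeq2 called 0. DESeq2 gave no adjusted p for 7 of the CA-acvr1b* values and 9 of the ndr2 values. Between ndr2 and CA-acvr1b* none of the 8 was called at any single stage by edgeR, where from sphere to 2-somite 0.0524%, 0.262%, 0.718%, 0.205%, 0.231%, 0.372% and 0.362% of all genes were. Of 56 values, 5 had an unadjusted p under 0.05 and 0 were called by DESeq2, which gave no adjusted p for 6. On average over stages 1 of the 8, nrp2b, was called, where 8.99% of all genes were.

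**Figure D4:**
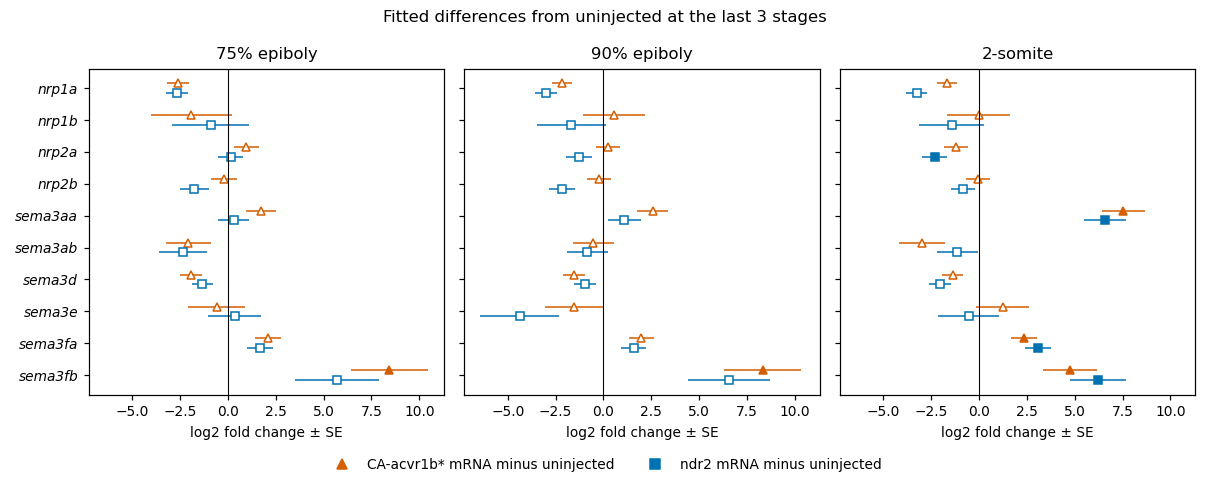
Fitted log2 fold change ± SE of each member at 75% epiboly, 90% epiboly and 2-somite, CA-acvr1b* minus uninjected (triangles) and ndr2 minus uninjected (squares). Filled symbols passed the test at adjusted p under 0.05. The symbols of nrp1a and sema3d are always open because no test result is given for them, whatever their values. Values for sema3fb at 75% and 90% epiboly, where the uninjected group has no count, are no bounds.

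Several lists of cell type markers also differed between the groups at 2-somite. At 2-somite the non-neural ectoderm and epidermis genes summed to 11531 to 11718 CPM in uninjected, 3518 to 4297 CPM in ndr2 and 1483 to 5481 CPM in CA-acvr1b* explants. Of the 11 tested, 8 were called lower at 2-somite under CA-acvr1b*. Under ndr2 7 were called lower and 2, vent and vox, higher. On average over stages 8 were lower under each injection. The neuroectoderm list of 13 genes summed to 327 to 412 CPM in uninjected, 2229 to 2640 CPM in ndr2 and 1821 to 2760 CPM in CA-acvr1b* explants at 2-somite. Of 12 tested, 11 were higher under CA-acvr1b* and 10 under ndr2 at that stage. On average over stages 5 and 4 were higher, and otx2a was lower under ndr2. Of all genes 9.15% and 12.2% were called at 2-somite, and 6.81% and 17.9% on average, under CA-acvr1b* and ndr2 in turn. Paraxial mesoderm genes summed to 6.33 to 17.6 CPM in uninjected explants at 2-somite and to 79.8 CPM or more in injected ones. The endothelial and blood progenitor list summed at 2-somite to 17.2 to 33.9 CPM in uninjected explants. It summed to 5.67 to 12.1 CPM under ndr2 and to 12.2 to 24.7 CPM under CA-acvr1b*. Of its 5 tested genes, cdh5 was called higher under CA-acvr1b* and kdrl lower under ndr2. Its gene gata1a was listed at 0 in all 63 libraries. Neural plate border and crest genes summed to 270 to 327 CPM in uninjected explants at that stage. Under ndr2 they summed to 708 to 767 CPM and under CA-acvr1b* to 532 to 587 CPM. The part of these shifts in the results for nrp1a, sema3d, sema3aa, sema3fa and sema3fb was not tested.

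**Figure D5:**
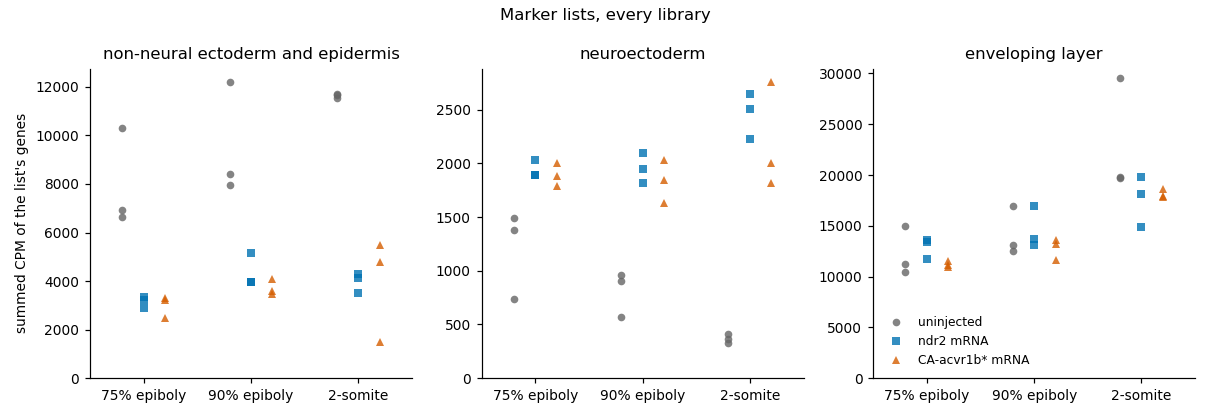
Summed CPM of 12 non-neural ectoderm and epidermis, 13 neuroectoderm and 8 enveloping layer marker genes in each library at 75% epiboly, 90% epiboly and 2-somite. The epidermis sum is higher in all uninjected libraries, at 6623 CPM or more, than in all injected ones, at 5481 CPM or less; the neuroectoderm sum is the other way round, and among the enveloping layer sums uninjected replicate A is the highest library at 75% epiboly and 2-somite.

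Other genes of the pathway were counted from lists written by hand. Genes named from the averages by a set rule were the largest called changes above a minimum level. They too were therefore picked on the values given for them. Genes outside that rule are marked as chosen after their values were seen. Of 10 plexin genes tested, the signalling partners of neuropilins, 0 were called on average by edgeR under CA-acvr1b*, with 1 at an unadjusted p under 0.05 and 1 called by DESeq2. Of all genes 6.81% were called in that average. Under ndr2, where 17.9% of all genes were called, 4 plexins were lower than in uninjected explants: plxnb2b (-0.67 ± 0.12, adjusted p = 5.37e-05), plxna3 (-0.42 ± 0.08, adjusted p = 7.5e-05), plxnb1b and plxnb3, the last 2 chosen after their values were seen. Between ndr2 and CA-acvr1b* 7 of 10 were lower under ndr2, where 8.99% of all genes were called in either direction, among them plxna2 (-0.87 ± 0.22) and plxnb2b (-0.74 ± 0.12). Most of the plxnb2b signal was early, with 81.1 to 113 CPM over the 9 sphere libraries and 1.19 to 5.13 CPM at 2-somite. At 2-somite plxnb1a was called under CA-acvr1b* (12.9 against 2.25 CPM, adjusted p = 0.000153) and plxnb2b under ndr2 (1.38 against 3.59 CPM, adjusted p = 0.0146), calls chosen after their values were seen. Each was the only call among the 10 plexins in its comparison, where 9.15% and 12.2% of all genes were called.

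Of the 4 tested class 3 semaphorins outside the set, edgeR called 0 on average under CA-acvr1b*, with 1 at an unadjusted p under 0.05 and 0 called by DESeq2. sema3ga was lower under ndr2 (-0.61 ± 0.20, adjusted p = 0.025). At 2-somite sema3b, chosen after its values were seen, averaged 23.4 CPM in uninjected, 1.77 CPM in ndr2 and 2.00 CPM in CA-acvr1b* explants (adjusted p = 0.0272 and 0.0422 against uninjected). It was the only 1 of the 4 called at that stage, where 12.2% and 9.15% of all genes were called under ndr2 and CA-acvr1b*. Of 13 semaphorins of classes 4 to 7, 1 was called on average under CA-acvr1b*, sema6d (0.34 ± 0.08 higher, adjusted p = 0.00245), and 1 under ndr2, sema5ba (-1.12 ± 0.28, adjusted p = 0.00343), which was lower and was chosen after its value was seen. Of 25 tested coreceptors and intracellular mediators, 1 was called on average under CA-acvr1b* and 9 under ndr2, 2 higher and 7 lower. Among the lower ones was dpysl3 (-0.77 ± 0.17, adjusted p = 0.000989), a collapsin response mediator gene, while fyna, which encodes a Src family kinase, was higher (0.41 ± 0.11, adjusted p = 0.00668). The counts on average over stages stand beside 6.81% of all genes called under CA-acvr1b* and 17.9% under ndr2.

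Of 8 tested VEGF ligand and receptor genes 0 were called by edgeR on average in any of the 3 comparisons, and 0 by DESeq2. At an unadjusted p under 0.05 there was 1 for CA-acvr1b*, 2 for ndr2 and 0 between the injections. The shares of all genes called on average were 6.81%, 17.9% and 8.99%. At 2-somite 2 of the 8 were called under CA-acvr1b* and 3 under ndr2, where 9.15% and 12.2% of all genes were. At 2-somite vegfaa, a VEGF-A ligand gene named after its values were seen, was 2.82 CPM on average in uninjected, 20.8 CPM in ndr2 and 23.8 CPM in CA-acvr1b* explants (adjusted p = 0.00232 and 0.00142 against uninjected). vegfab was 12.7 against 3.67 CPM under ndr2 (adjusted p = 0.0412). The receptor genes flt4 and kdrl were lower in 1 comparison each, flt4 under CA-acvr1b* (0.702 against 5.92 CPM, adjusted p = 0.0334) and kdrl under ndr2 (2.38 against 9.02 CPM, adjusted p = 0.017).

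The genes whose 21 group means of log2(CPM + 1) were most like those of nrp1a, among 10313 genes, were BX571715.1 (Pearson r = 0.973), cyp2v1 (0.931), sgms1 (0.929), txndc16 (0.929) and tspo (0.917). For sema3d they were wu:fc23c09 (0.980), id4 (0.974), tecta (0.973), pnpla3 (0.966) and s1pr5a (0.953). Among members, nrp2b and sema3fa (0.830), nrp2a and nrp2b (0.816) and sema3fa and sema3fb (0.810) were most alike, and nrp2a and sema3e (-0.828) most opposite. These correlations share libraries and the common course of development and are descriptions only.

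In the RefSeq gene order of the assembly GRCz12tu, which is not the build of the counts, sema3ab and sema3e are adjacent protein-coding genes, 1 gene lies between sema3ab and sema3d, and 2 lie between sema3d and sema3e. The neighbours did not share a course: sema3ab and sema3e were highest at sphere, and sema3d was at 0 to 0.429 CPM there and peaked in late gastrulation.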

How the data were processed

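Polyadenylated RNA of 63 zebrafish explant libraries was analysed from the gene counts deposited by the authors, which are whole-number raw read counts for 32057 genes. Per the submitters' processing notes, Trim Galore, STAR and featureCounts were used with the builds danRer11 and GRCz11. Versions, annotation, strand setting and the handling of reads shared between paralogs are not given in the sources used here, so reads of near-identical paralogs could have been split or dropped. Counts were divided by library totals to give CPM.

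Tests used edgeR 4.0.16 under R 4.3.3 with limma 3.58.1. TMM scaling and the filterByExpr filter on low counts (minimum count 10, minimum total 15) over the 21 groups left 19069 genes with 99.97% of all counts. A quasi-likelihood model of all 63 libraries with 1 mean per group (42 residual degrees of freedom) gave differences at each stage, their average over 7 stages, their dependence on stage and changes between stages. P-values were adjusted by Benjamini and Hochberg over all tested genes and called under 0.05. The dependence test of nrp1a and sema3d is not reported, since it reads the values behind their choice. Fold changes used a prior count of 0.125. Each edgeR SE was the absolute log2 fold change divided by the square root of the F statistic of its test. It is not an SE given by the model, and it becomes very large as F nears 0. Where a group had no count, a bound was set from a floor of 3 counts over the group, and bounds without 1 library were added after seeing the data; counting intervals are exact at 95% and cover counting error only.

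The members and the gene lists were chosen with earlier results of these data known. Named pathway genes were, per list and average contrast, up to 2 rises and 2 falls, taken from calls whose higher condition averaged 5 CPM or more. Likeness was computed over tested genes averaging 5 CPM or more. Alternatives were DESeq2 1.42.0 and its size factors, no filter, a fit of the 6 libraries compared, counts summed over stages, a replicate block, and leaving out letters, single libraries or the 2-somite stage; further fits without uninjected or CA-acvr1b* replicate A at 2-somite were chosen after seeing the data. The model was tested on simulated data.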

Additional observations from a re-analysis of the deposited data

Results flagged for a closer look

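The dependence of a condition's effect on stage passed the edgeR test for sema3aa, with an adjusted p of 0.00122 for CA-acvr1b* and 0.00929 for ndr2, each against uninjected. Among single stages edgeR called sema3aa at 2-somite only, and DESeq2 also called it under CA-acvr1b* at 90% epiboly (adjusted p = 0.0186). Without the 2-somite stage neither dependence test passed (0.992 and 1). With a letter left out the first was lost without A (0.160) or C (0.244) and the second without any of the 3 (0.0833 to 0.399) or without uninjected replicate A at 2-somite (0.0734). Both comparisons share the uninjected libraries.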

How the results depend on the processing

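Of the 8 members not used in the choice, the number called was 3 for CA-acvr1b* against uninjected at 2-somite (1 to 3 with 1 library or 1 letter left out), 1 at 75% epiboly (0 to 1) and 3 on average (1 to 3). For ndr2 against uninjected it was 4 at 2-somite (3 to 4), 0 at 75% epiboly (0 in each) and 3 on average (1 to 3). For ndr2 against CA-acvr1b* it was 1 on average (0 to 2). For CA-acvr1b* at 2-somite, the sema3fa and sema3fb calls were lost without any 1 letter (edgeR, adjusted p = 0.0591 to 0.361). At 75% epiboly the sema3fb call was lost in the same way (0.0927 to 0.132). Each letter left out also took at least 1 call from the ndr2 average against uninjected. A fit of only the 6 libraries compared called 2 for CA-acvr1b* and 1 for ndr2 at 75% epiboly. By DESeq2 the average called 5 for ndr2 relative to uninjected and 2 between the injections. For ndr2 the added calls were nrp2a and sema3fb, whose edgeR average had an SE of 9946. Leaving out the 2-somite stage reduced the ndr2 average to 1 call, and with counts summed over stages ndr2 against CA-acvr1b* called 0. The lower average counts for CA-acvr1b* include the sema3fb refits without letter B or C, which could not decide. The cause of the other changes was not tested.

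Between conditions within a stage, replicate letters did not pair the libraries. The 63 correlations of same-letter deviations ran from -0.373 to 0.412 with a median of -0.0136, 16 of them over 0.1. Whether libraries of the same letter were linked across stages was not tested. Uninjected replicate A had the highest enveloping layer sum and the lowest pluripotency sum of its group at each late stage given above. The main model treats libraries of different stages as independent, in the averages over stages and in the changes between stages. With the replicate block the count for CA-acvr1b* at 2-somite was 3, or 2 with the block within stage, where sema3fb had an adjusted p of 0.0571, and the other 6 counts (1, 3, 4, 0, 3 and 1) did not move. Values under 1 CPM rest on few counts, and no listed 0 shows absence.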
